A study of Homo sapiens with 12 samples.

Results

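The 37 genes described here are ATF4, the central transcription factor of the integrated stress response, and genes that it is known to regulate or that carry out the metabolism it drives: stress transcription factors, their effectors, the enzymes of serine synthesis, folate-linked one-carbon transfer, transsulfuration and asparagine and proline synthesis, amino acid transporters and aminoacyl-tRNA synthetases. They were taken by gene name from a list of known members, and all 37 had a row in both expression tables, among 31911 genes with counts in the siCHD4 table and 33154 in the siCHD3 table. Expression was measured by RNA-seq in 501Mel, an established human melanoma cell line, 72 h after transfection of siRNA pools directed against CHD4 (siCHD4) or CHD3 (siCHD3), the ATPase subunits of the NuRD chromatin remodelling complex, or of a control siRNA (siCtrl). The 12 libraries comprise siCHD4 replicates 1 to 3 with siCtrl replicates 1 to 3 in the first table and siCHD3 replicates 1 to 3 with siCtrl replicates 4 to 6 in the second, so the comparisons share no library. A single cell line and a single pool per target were used. The study calls its replicates biological, and the p-values measure the spread between these libraries.

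Total counts were 44966728 to 102005319 per library in the siCHD4 table and 38573214 to 57219281 in the siCHD3 table. CHD4 mRNA stood at 12.2% of siCtrl after siCHD4 (log2 change, silenced over siCtrl, -3.03, edgeR adjusted p = 0.000724) and CHD3 mRNA at 20.3% of siCtrl after siCHD3 (log2 change -2.30, edgeR adjusted p = 2.75e-06), where CHD4 mRNA was higher (log2 change 0.77, edgeR adjusted p = 0.00132). Melanocyte lineage markers (MITF, SOX10, PMEL, MLANA, TYR, TYRP1 and DCT) were detected in both tables, with summed levels of 20241 to 21432 CPM (read counts scaled to the library size with TMM factors) in siCHD4 and 15089 to 19895 CPM in siCtrl, and of 13017 to 17251 CPM in siCHD3 and 13782 to 14431 CPM in siCtrl. Fibroblast markers summed to 18.5 to 30.8 CPM in siCHD3, against 12.7 to 13.8 CPM in siCtrl. After siCHD4 the sums of the leukocyte markers (1.00 to 1.57 CPM, against 0.421 to 0.545 CPM in siCtrl) and of the endothelial markers (1.19 to 1.97 CPM, against 0.136 to 0.370 CPM in siCtrl) were low but also did not overlap. The part of these markers in the results was not tested. The melanocyte lineage sums after siCHD4 also lay above those of siCtrl without overlap. The other sums of these lists and of the keratinocyte markers overlapped between the groups. In the siCHD4 table, siCtrl replicate 3 stood apart from the other libraries. It had the lowest total count, a TMM factor of 0.816 and the largest distance from its own group (0.792, root mean square of log2 CPM), and it was the highest of the 6 libraries for 20 of the 36 members tested. Values without it are given where a call or a direction after siCHD4 depended on it. They show dependence on 1 library, which was singled out with the member values known, and are not independent calls. In the siCHD3 table, siCtrl replicate 6 was the highest library for 16 of 36 members. The same counts were not made over all genes.

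When amino acids run short, or when unfolded proteins or heme deficiency activate an eIF2 kinase, general translation falls while ATF4 mRNA is translated more. ATF4 pairs with C/EBP factors on the C/EBP-ATF response element and switches on amino acid uptake, serine and asparagine synthesis, tRNA charging and, on prolonged stress, the factor DDIT3 (CHOP). ATF4 is set largely by translation, which was not measured here. In melanoma cells ATF4 is known to repress MITF, the melanocyte master regulator, under nutrient limitation.

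The element is shown because it is the sequence feature by which these genes are usually grouped. Its core was searched as TGATGNAA on both strands in the RefSeq promoter windows, which run from 250 bases before to 50 bases after each start and come from a table of build GRCh38.p14. Windows were placed on GRCh37 by exact sequence match. The core was present in 11 of the 31 members with a window (35.5%), against 1217 of 27305 genes (4.46%). The matches below are written on the strand of the gene, with the core in capitals, read as TGATGNAA or as its reverse complement.
ASNS: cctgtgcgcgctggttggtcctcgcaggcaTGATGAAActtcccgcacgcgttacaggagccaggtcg
MTHFD1L: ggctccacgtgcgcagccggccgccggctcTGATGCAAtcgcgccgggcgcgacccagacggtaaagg
SLC3A2: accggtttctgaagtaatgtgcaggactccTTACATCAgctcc
CHAC1: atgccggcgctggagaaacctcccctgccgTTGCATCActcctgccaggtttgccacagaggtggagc
CEBPG: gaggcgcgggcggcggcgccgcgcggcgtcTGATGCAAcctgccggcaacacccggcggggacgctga
SLC1A5: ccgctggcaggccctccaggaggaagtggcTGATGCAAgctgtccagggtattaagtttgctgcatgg
AARS: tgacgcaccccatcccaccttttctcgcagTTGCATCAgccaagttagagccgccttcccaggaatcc

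Positions are counted from the RefSeq start of each window, which need not be the outermost start of the gene. The windows of SLC3A2, SLC1A5 and GARS lie well inside the annotated genes. The core begins at base -68 in ASNS (chr7:97501751-97501818, minus strand), at -129, -90 or 25 by the start used in MTHFD1L (chr6:151187463-151187530, plus strand) and at 38 in SLC3A2 (chr11:62649178-62649220, plus strand), the 3 members with a match that passed the test in a comparison. It begins at -209 in CHAC1 (chr15:41245430-41245497, plus strand), -42 in CEBPG (chr19:33864947-33865014, plus strand), -97 in SLC1A5 (chr19:47288131-47288198, minus strand) and -187 in AARS (chr16:70323559-70323626, minus strand), which passed in neither. ATF3, SLC7A1, SLC1A4 and GARS also held a match. Of the 11 members with a match, 1 fell after siCHD4 (ASNS), and after siCHD3 2 fell (ASNS and MTHFD1L), 1 rose (SLC3A2) and 8 did not pass. Among the 20 other members with a window, DDIT3 passed after siCHD4, and 3 rose and 3 fell after siCHD3. A match is a description of the sequence, and a window without one says only that these letters are not in it. NUPR1, PSPH, SHMT2, ALDH1L2, PYCR1 and SLC7A11 had no window.

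By the deposited gene lengths, the most abundant members in siCtrl cells came from several roles, among them the transporter chain SLC3A2 and the alanyl-tRNA synthetase AARS. Per kb of the gene length used in the deposited tables, siCtrl replicates 1 to 3 averaged 1097 ± 574 CPM per kb for SLC3A2, 952 ± 414 for AARS, 744 ± 225 for SLC1A4, 686 ± 432 for PHGDH, 587 ± 262 for SHMT2 and 535 ± 269 for SLC7A5 (SD, n = 3). These SDs exceed the gaps between neighbours, so the order of the leading genes is not resolved. In siCtrl replicates 4 to 6, SLC1A4 (712 ± 100.0 CPM per kb), AARS (569 ± 102) and SLC3A2 (534 ± 138) led, PHGDH averaged 341 ± 99.2, and SLC7A5 stood at rank 16 with 146 ± 51.8 CPM per kb. Back in siCtrl replicates 1 to 3, ATF4 averaged 107 ± 2.49 CPM per kb, ASNS 16.3 ± 1.75, DDIT3 14.0 ± 1.38 and CHAC1 4.31 ± 2.63. The same 4 genes averaged 139, 25.5, 40.5 and 7.19 CPM per kb in siCtrl replicates 4 to 6. STC2, a secreted glycoprotein, and ALDH1L2, the mitochondrial formyl-tetrahydrofolate dehydrogenase, were near the limit of detection. In siCtrl replicates 1 to 3 they averaged 0.799 ± 0.763 and 0.0571 ± 0.0082 CPM per kb. The deposited gene lengths are short, with annotated exon lengths 1.00 to 25.2 times as long (median 3.99). With exon length in their place, SLC3A2, SLC1A4, PHGDH, SHMT2 and SLC7A5 stayed among the first 7 in siCtrl replicates 1 to 3, and STC2 and ALDH1L2 stayed last. Other ranks moved, with AARS going from 2 to 11, SLC1A5 from 10 to 2 and ATF4 from 17 to 6.

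**Figure D1:**
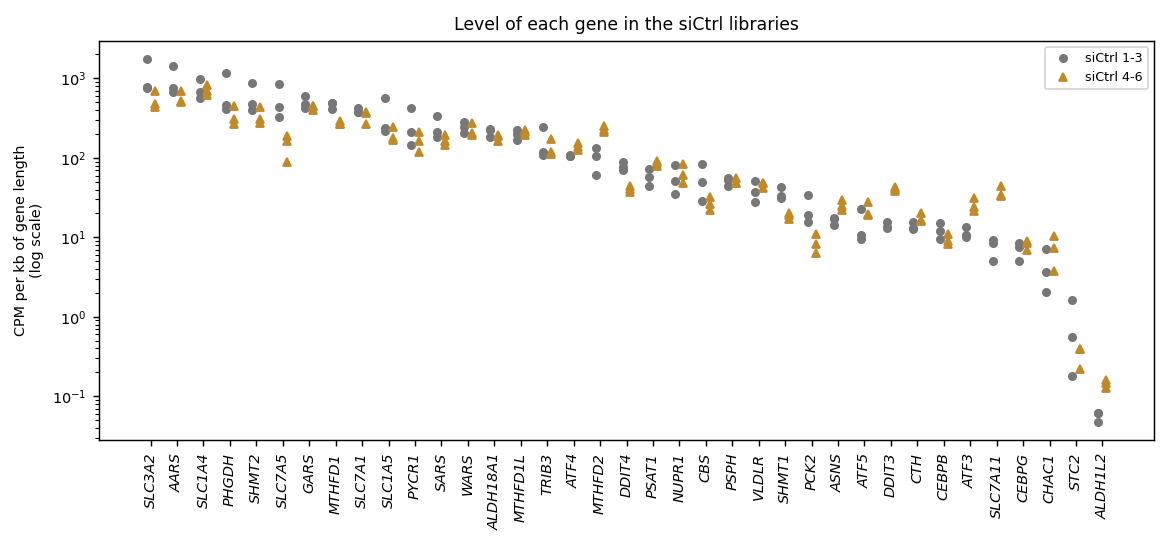
Levels of the 37 genes in each siCtrl library, in CPM per kb of deposited gene length on a log axis; circles are siCtrl replicates 1 to 3 and triangles siCtrl replicates 4 to 6, and genes are ordered by the mean of siCtrl 1 to 3. Levels run from SLC3A2 at 1097 CPM per kb to ALDH1L2 at 0.0571. The 2 siCtrl sets, normalised separately, lie apart for many genes, among them DDIT3, SLC7A11, SLC7A5, ATF3, DDIT4 and MTHFD2.

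After CHD4 silencing few of these genes differed beyond the spread between libraries. Of 36 members tested, DDIT3 rose and ASNS fell (edgeR quasi-likelihood test, adjusted p under 0.05 over all genes). Over all 17018 genes tested, 5.07% rose and 2.06% fell, so a count of 1 in each direction is near the background. With a 2-fold threshold added, ASNS alone of the members was called, against 4.8% of genes called higher and 1.65% called lower. The median log2 change of the members was -0.17, against -0.06 over all genes, and 21 of 36 were below 0 (58.3%, against 54.7% of all genes). The 3 siCHD4 libraries lay above all siCtrl libraries for 7 members and below them for 7, 38.9% of those tested, against 31.3% of all genes. Leaving out siCtrl replicate 2, or any single siCHD4 library, ended both calls (members past the test 0, adjusted p up to 0.203 for DDIT3 and 0.151 for ASNS). Over all genes, 312 of 17569 passed without siCtrl replicate 2. Without siCHD4 replicates 1, 2 and 3 in turn, 261 of 17526, 338 of 17566 and 384 of 17492 passed. A member count of 0 is thus near the background of these fits. ALDH1L2 had too few counts to be tested. In bulk RNA, fewer cells expressing a gene and less of its RNA per cell cannot be told apart.

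After CHD3 silencing 10 of 36 members tested passed (27.8%), against 3275 of 16115 genes. Higher were DDIT4, SHMT1, SLC7A5 and SLC3A2, and lower were ASNS, MTHFD2, MTHFD1L, PSAT1, SLC7A11 and DDIT3. Over all 16115 genes tested, 11.5% rose and 8.81% fell. The 4 members higher are thus near the background and the 6 lower above it, and the members were not tested as a set. With the 2-fold threshold, DDIT4 and SLC7A5 were called higher and ASNS lower, against 3.89% and 4.33% of all genes. The median of the members was -0.05, against -0.02 over all genes, with 21 of 36 below 0 (58.3%, against 51.5% of all genes). The libraries did not overlap for 13 members, 6 higher and 7 lower after siCHD3 (36.1%, against 37.1% of all genes). STC2 was not tested. The plot of the responses shows both comparisons gene by gene.

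**Figure D2:**
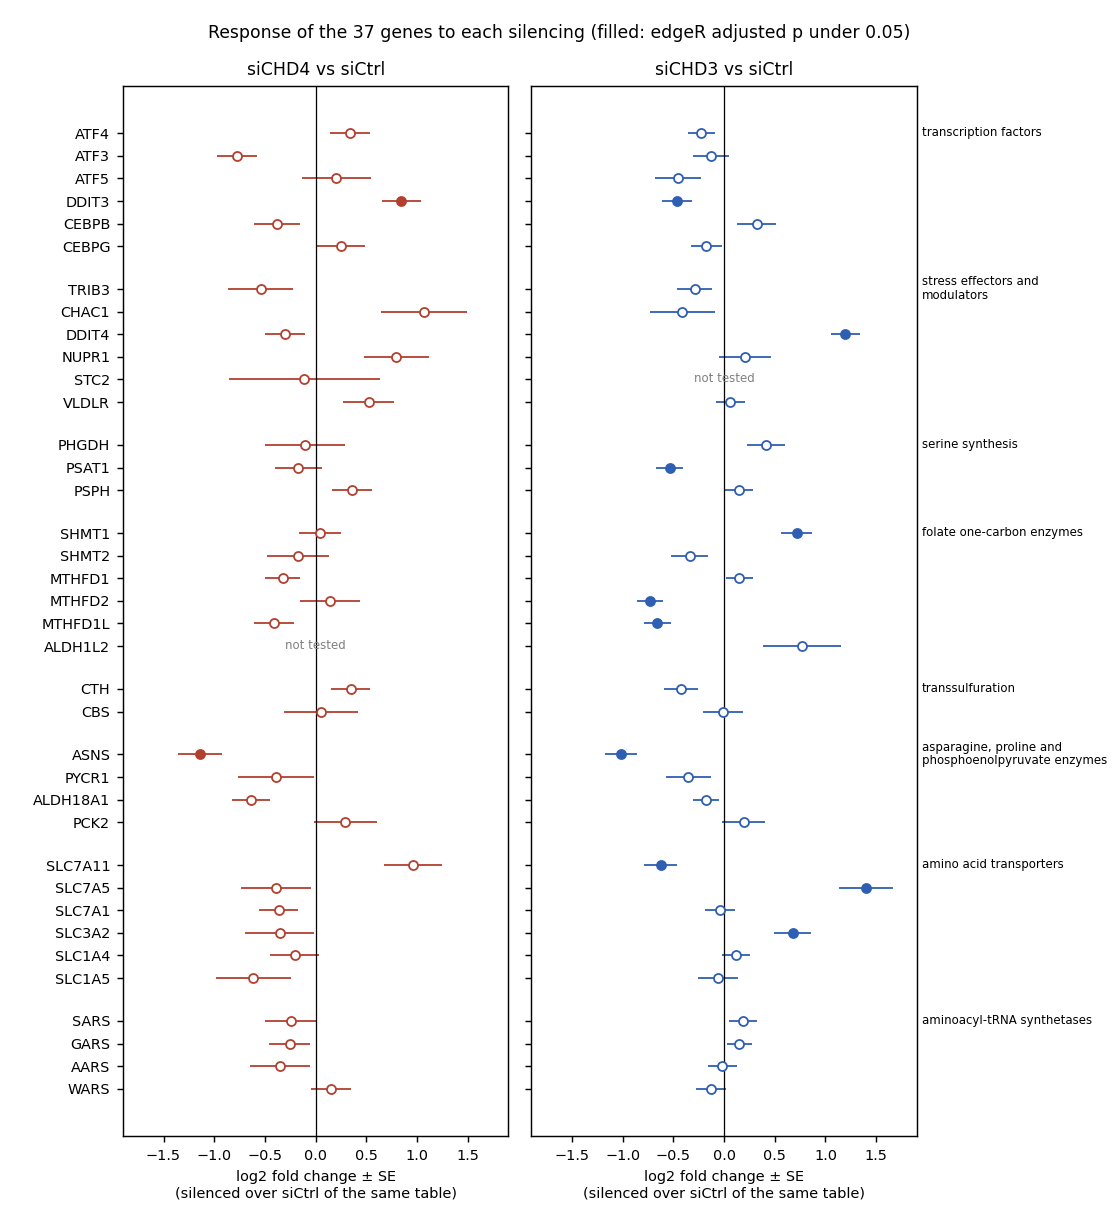
Log2 fold change ± SE of each of the 37 genes after siCHD4 (left) and after siCHD3 (right), each against the siCtrl libraries of its own table, grouped by role; filled points passed the edgeR test at an adjusted p under 0.05. After siCHD4 only DDIT3 (0.85) and ASNS (-1.14) are filled, while after siCHD3 10 genes are, from SLC7A5 at 1.40 to ASNS at -1.02.

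Of the 6 transcription factors, DDIT3 passed in both comparisons, with opposite directions, and ATF4 in neither. ATF4 (ENSG00000128272, chr22:39915700-39918688, plus strand, coordinates on GRCh37 here and below) had 309.8, 228 and 238 CPM in the siCHD4 libraries, against 204, 201 and 209.9 CPM in siCtrl replicates 1 to 3. The groups did not overlap, but the log2 change of 0.34 ± 0.20 (SE) missed the threshold (edgeR adjusted p = 0.369). ATF4 had 211, 257 and 214 CPM in the siCHD3 libraries, against 291, 241 and 266 CPM in siCtrl replicates 4 to 6, overlapping groups with a log2 change of -0.22 ± 0.14 (edgeR adjusted p = 0.275). ATF4 has 4 annotated pseudogenes, and reads shared with them could be split.

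DDIT3 (CHOP, ENSG00000175197, chr12:57910371-57915520, minus strand) is the pro-apoptotic C/EBP-family factor at the end of the pathway. It had 25.6, 21.9 and 22.7 CPM in the siCHD4 libraries, against 14.5, 12.5 and 12.1 CPM in siCtrl replicates 1 to 3. All siCHD4 libraries were higher, and DDIT3 rose with a log2 change of 0.85 ± 0.20 (edgeR adjusted p = 0.0405). After siCHD3 the order was the opposite, with 24.6, 26.1 and 29 CPM in the siCHD3 libraries, against 36.5, 35.2 and 38.4 CPM in siCtrl replicates 4 to 6. The groups did not overlap, and DDIT3 fell with a log2 change of -0.47 ± 0.14 (edgeR adjusted p = 0.0369), a call that was lost when any 1 of the 6 libraries was left out (adjusted p 0.0507 to 0.2). Of its annotated exon bases, 31.6% lie opposite exons of MARS1 or MBD6, and the strand of counting is not stated, so its counts are uncertain.

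Of the other factors, ATF3, a stress-induced factor of the same family, was lower in all siCHD4 libraries (5.56 to 5.89 CPM, against 8.68 to 11.6 CPM in siCtrl), with a log2 change of -0.78 ± 0.20 that missed the threshold (edgeR adjusted p = 0.0584, 0.00154 without siCtrl replicate 3). ATF5, a mitochondrial stress factor, had 13.6 ± 0.506 CPM after siCHD4 and 11.8 ± 6.01 CPM in siCtrl (SD, n = 3), and passed without siCtrl replicate 3 (log2 change 0.72, edgeR adjusted p = 0.00162). CEBPB and CEBPG, dimerisation partners of ATF4, gave log2 changes of -0.38 and 0.25 after siCHD4 and of 0.32 and -0.18 after siCHD3, and neither passed. ATF3 and ATF5 did not pass after siCHD3 either (log2 changes -0.13 and -0.45), though ATF5 passed without siCHD3 replicate 2 (edgeR adjusted p = 0.0437).

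The stress effectors were led by DDIT4 after siCHD3. DDIT4 (REDD1, ENSG00000168209, chr10:74033678-74035794, plus strand) is an inhibitor of mTORC1. It had 65, 78.3 and 67.6 CPM in the siCHD3 libraries, against 27.9, 30.7 and 33.5 CPM in siCtrl replicates 4 to 6. Every siCHD3 library was above every siCtrl library, and DDIT4 rose with a log2 change of 1.20 ± 0.15 (edgeR adjusted p = 0.000174), past the test in all 6 fits with a library left out. DDIT4 had 48.9, 47.6 and 47.7 CPM in the siCHD4 libraries, against 52.6, 57.1 and 67.8 CPM in siCtrl replicates 1 to 3, slightly lower without overlap, at a log2 change of -0.30 ± 0.20 (edgeR adjusted p = 0.433).

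CHAC1 (ENSG00000128965, chr15:41245160-41248710, plus strand), a glutathione-degrading enzyme induced by ATF4, had 12.6, 10.4 and 9.4 CPM in the siCHD4 libraries, against 2.48, 4.43 and 8.67 CPM in siCtrl replicates 1 to 3. The siCHD4 libraries were all higher, but the siCtrl libraries spread widely and the log2 change of 1.07 ± 0.42 did not pass (edgeR adjusted p = 0.192). Without siCtrl replicate 3 it was 1.66 (edgeR adjusted p = 0.00155). CHAC1 had 5.47, 7.76 and 6.29 CPM in the siCHD3 libraries, against 4.58, 8.81 and 12.6 CPM in siCtrl replicates 4 to 6, with overlap. The log2 change was -0.41 ± 0.32 (edgeR adjusted p = 0.416, 0.035 without siCtrl replicate 4).

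TRIB3 (ENSG00000101255, chr20:343479-378203, plus strand), a pseudokinase that restrains ATF4, had 149, 141 and 129.9 CPM in the siCHD4 libraries, against 142, 155 and 315 CPM in siCtrl replicates 1 to 3. The siCtrl mean rested on siCtrl replicate 3, and the log2 change of -0.54 ± 0.32 (edgeR adjusted p = 0.378) was -0.07 without it. TRIB3 had 131, 165 and 132 CPM in the siCHD3 libraries, against 153, 146 and 224 CPM in siCtrl replicates 4 to 6, again overlapping (log2 change -0.29 ± 0.18, edgeR adjusted p = 0.272). NUPR1, a small stress-induced chromatin protein, was above siCtrl in every siCHD4 library (53.2 to 66.6 CPM, against 21.1 to 49.1 CPM) without passing the test (log2 change 0.79 ± 0.32, edgeR adjusted p = 0.201, 0.000488 without siCtrl replicate 3). VLDLR, a lipoprotein receptor, did not pass in either comparison (log2 changes 0.52 after siCHD4 and 0.06 after siCHD3). STC2 had 0.207, 0.431 and 0.651 CPM in the siCHD4 libraries, against 0.106, 0.962 and 0.327 CPM in siCtrl replicates 1 to 3, and 0.0464, 0.0236 and 0.108 CPM in the siCHD3 libraries, against 0.128, 0.231 and 0.23 CPM in siCtrl replicates 4 to 6.

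Serine synthesis from 3-phosphoglycerate takes 3 enzymes, and they did not move together. PHGDH (ENSG00000092621, chr1:120191034-120286841, plus strand), the committed step, had 683, 654 and 642 CPM in the siCHD4 libraries, against 431, 474 and 1226 CPM in siCtrl replicates 1 to 3. The siCHD4 libraries lay above siCtrl replicates 1 and 2 and below siCtrl replicate 3, so the log2 change of -0.11 ± 0.39 (edgeR adjusted p = 0.905) became 0.56 without siCtrl replicate 3 (edgeR adjusted p = 0.00438), a change of direction. PHGDH had 425, 515 and 469.9 CPM in the siCHD3 libraries, against 273, 318 and 469 CPM in siCtrl replicates 4 to 6, with 1 siCtrl library inside the siCHD3 range (log2 change 0.41 ± 0.19, edgeR adjusted p = 0.147, 0.00603 without siCtrl replicate 6).

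PSAT1 (ENSG00000135069, chr9:80912041-80945009, plus strand), the aminotransferase that follows PHGDH, fell after siCHD3. It had 104, 98.2 and 115 CPM in the siCHD3 libraries, against 164, 143 and 154 CPM in siCtrl replicates 4 to 6, with no overlap and a log2 change of -0.54 ± 0.13 (edgeR adjusted p = 0.0119). The call was lost without siCHD3 replicate 1 or siCHD3 replicate 2 (adjusted p up to 0.0688). PSAT1 had 102, 90.1 and 89.7 CPM in the siCHD4 libraries, against 132, 104 and 80.5 CPM in siCtrl replicates 1 to 3, within the siCtrl range (log2 change -0.17 ± 0.23, edgeR adjusted p = 0.724). PSPH (ENSG00000146733, chr7:56078744-56119297, minus strand), the phosphatase that releases serine, had 49.5, 47.4 and 48.6 CPM in the siCHD4 libraries, against 41.3, 39.5 and 32.5 CPM in siCtrl replicates 1 to 3, higher without overlap but not past the test (log2 change 0.36 ± 0.20, edgeR adjusted p = 0.342). PSPH had 39.6, 41.1 and 44.4 CPM in the siCHD3 libraries, against 36, 35.4 and 41.8 CPM in siCtrl replicates 4 to 6, which overlapped (log2 change 0.14 ± 0.14, edgeR adjusted p = 0.527). PSAT1 has 4 annotated pseudogenes and PSPH has 1.

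Folate-linked one-carbon enzymes responded to CHD3 silencing in opposite directions by gene. MTHFD2 (ENSG00000065911, chr2:74413299-74444692, plus strand), the mitochondrial methylene-tetrahydrofolate dehydrogenase of proliferating cells, had 181, 173 and 170.3 CPM in the siCHD3 libraries, against 319, 268 and 283 CPM in siCtrl replicates 4 to 6. All siCHD3 libraries were lower, and MTHFD2 fell with a log2 change of -0.73 ± 0.13 (edgeR adjusted p = 0.00165). MTHFD1L (ENSG00000120254, chr6:151186815-151423023, plus strand), which completes the mitochondrial arm by releasing formate, had 68.2, 65.1 and 71.7 CPM in the siCHD3 libraries, against 109, 99.2 and 115 CPM in siCtrl replicates 4 to 6. It fell too, with no overlap and a log2 change of -0.66 ± 0.13 (edgeR adjusted p = 0.00394). Both kept their calls in all 6 fits with a library left out.

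SHMT1 (ENSG00000176974, chr17:18231174-18266877, minus strand), the cytosolic serine hydroxymethyltransferase, had 46.7, 57.9 and 58.5 CPM in the siCHD3 libraries, against 33.5, 29.8 and 36.1 CPM in siCtrl replicates 4 to 6. The siCHD3 libraries were all higher, and SHMT1 rose with a log2 change of 0.72 ± 0.15 (edgeR adjusted p = 0.00528), also in all 6 fits with a library left out. Its mitochondrial counterpart SHMT2 (ENSG00000182199, chr12:57623356-57628718, plus strand) had 194, 258 and 245 CPM in the siCHD3 libraries, against 236, 267 and 379.7 CPM in siCtrl replicates 4 to 6, which overlapped, with a log2 change of -0.34 ± 0.18 (edgeR adjusted p = 0.221). MTHFD1, the cytosolic trifunctional enzyme, did not pass (log2 change 0.15), nor did ALDH1L2 (log2 change 0.77, at 0.557 ± 0.191 CPM after siCHD3 and 0.322 ± 0.0393 CPM in siCtrl).

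After siCHD4 none of the 5 folate enzymes tested passed. MTHFD2 had 149.7, 135 and 136 CPM in the siCHD4 libraries, against 171, 133 and 76.9 CPM in siCtrl replicates 1 to 3, with the siCtrl values on both sides of siCHD4 (log2 change 0.14 ± 0.29, edgeR adjusted p = 0.823). MTHFD1L had 80.2, 74.1 and 75.9 CPM in the siCHD4 libraries, against 104, 86.1 and 116 CPM in siCtrl replicates 1 to 3, lower without overlap (log2 change -0.41 ± 0.20, edgeR adjusted p = 0.284). SHMT1 had 68.3, 62.9 and 64.3 CPM in the siCHD4 libraries, against 55.8, 58.5 and 75.5 CPM in siCtrl replicates 1 to 3, a log2 change of 0.04 ± 0.21 (edgeR adjusted p = 0.929). For SHMT2 siCtrl replicate 3 was again the highest library, with 450.3, 441 and 447 CPM in the siCHD4 libraries, against 344, 406 and 760.3 CPM in siCtrl replicates 1 to 3 (log2 change -0.17 ± 0.30, edgeR adjusted p = 0.792). Without it the log2 changes were 0.27 for SHMT2 and -0.10 for MTHFD2, of the opposite sign and not past the test. MTHFD2 has 7 annotated pseudogenes, and SHMT1 and MTHFD1 have 1 each.

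**Figure D3:**
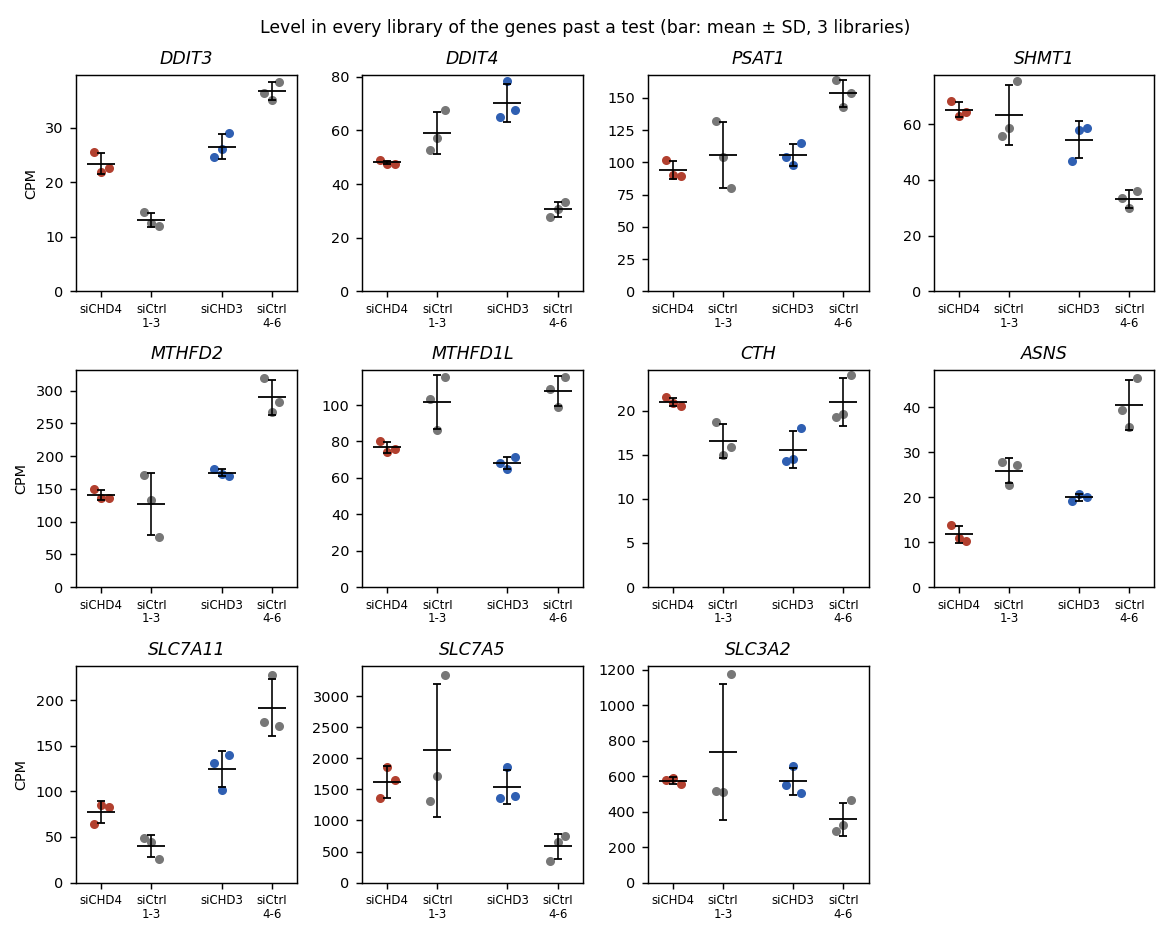
Level in CPM in each library of the 11 genes that passed the test in a comparison or in the difference of the responses, with siCHD4 left of its siCtrl (1 to 3) and siCHD3 left of its siCtrl (4 to 6); black bars are mean ± SD of 3 libraries and each axis starts at 0. ASNS is lower in all silenced libraries of both comparisons, whereas DDIT3, SLC7A11, DDIT4, SLC7A5 and CTH differ between the comparisons.

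ASNS was the member that fell in both comparisons. ASNS (ENSG00000070669, chr7:97480989-97501854, minus strand) makes asparagine from aspartate and glutamine, and its promoter match is shown above. It had 13.8, 11 and 10.3 CPM in the siCHD4 libraries, against 27.7, 22.6 and 27.1 CPM in siCtrl replicates 1 to 3. The highest siCHD4 library was below the lowest siCtrl library, and ASNS fell with a log2 change of -1.14 ± 0.21 (edgeR adjusted p = 0.0189). ASNS had 19.1, 20.7 and 20.1 CPM in the siCHD3 libraries, against 39.3, 35.6 and 46.4 CPM in siCtrl replicates 4 to 6, again without overlap, and fell with a log2 change of -1.02 ± 0.15 (edgeR adjusted p = 0.00068). The difference of the 2 responses was -0.11 ± 0.23 on the log2 scale and did not pass (edgeR adjusted p = 0.797). Without siCtrl replicate 2 or any 1 siCHD4 library the siCHD4 call was lost, while the siCHD3 call passed in all 6 fits (adjusted p 0.00106 to 0.00349). Of the exon bases of ASNS, 49.3% are shared on the same strand with another annotated gene, and it has 5 annotated pseudogenes, so its counts depend on the annotation used for counting.

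ALDH18A1 and PYCR1 make proline from glutamate, and PCK2 is the mitochondrial phosphoenolpyruvate carboxykinase. ALDH18A1 was lower in all siCHD4 libraries (102 to 106 CPM, against 139 to 175 CPM in siCtrl) with a log2 change of -0.63 ± 0.19 that did not pass (edgeR adjusted p = 0.0938, 0.0041 without siCtrl replicate 3). PYCR1 had 167 ± 8.63 CPM after siCHD4 and 219 ± 125 CPM in siCtrl and PCK2 37.6 ± 2.33 CPM after siCHD4 and 30.7 ± 13.2 CPM in siCtrl (SD, n = 3), and neither passed (without siCtrl replicate 3 the log2 change of PYCR1 was 0.18 in place of -0.39, and PCK2 passed without siCtrl replicate 3, log2 change 0.71, edgeR adjusted p = 0.0019). After siCHD3 the 3 genes gave log2 changes of -0.18, -0.35 and 0.19, none past the test.

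In transsulfuration, CTH (ENSG00000116761, chr1:70876901-70905534, plus strand), which releases cysteine from cystathionine, had 21.5, 20.9 and 20.5 CPM in the siCHD4 libraries, against 18.7, 15 and 15.9 CPM in siCtrl replicates 1 to 3, higher without overlap. The log2 change of 0.34 ± 0.19 did not pass (edgeR adjusted p = 0.35). CTH had 14.3, 14.5 and 18 CPM in the siCHD3 libraries, against 19.3, 19.6 and 24.1 CPM in siCtrl replicates 4 to 6, lower without overlap and not past the test (log2 change -0.43 ± 0.17, edgeR adjusted p = 0.0917). CBS, which makes cystathionine, gave log2 changes of 0.05 after siCHD4 (-0.25 without siCtrl replicate 1, 0.53 without siCtrl replicate 3) and -0.01 after siCHD3. Of the CBS exon bases, 36.8% are shared with another annotated gene on the same strand.

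The amino acid transporters held the largest rise among the members after siCHD3. SLC7A5 (LAT1, ENSG00000103257, chr16:87863629-87903113, minus strand), the exchanger for large neutral amino acids, had 1362, 1862 and 1393 CPM in the siCHD3 libraries, against 353, 646 and 751 CPM in siCtrl replicates 4 to 6. The groups were far apart, and SLC7A5 rose with a log2 change of 1.40 ± 0.26 (edgeR adjusted p = 0.00646). SLC3A2 (CD98, ENSG00000168003, chr11:62623476-62656352, plus strand), the heavy chain that pairs with SLC7A5 and SLC7A11, had 552, 655 and 507 CPM in the siCHD3 libraries, against 288, 322 and 463 CPM in siCtrl replicates 4 to 6. It rose with no overlap and a log2 change of 0.68 ± 0.18 (edgeR adjusted p = 0.0202), a call lost without siCtrl replicate 4 or siCtrl replicate 5 (adjusted p up to 0.0658). SLC7A5 has 2 annotated pseudogenes.

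SLC7A11 (xCT, ENSG00000151012, chr4:139085251-139163503, minus strand), the light chain of the cystine-glutamate exchanger, had 131, 102 and 139.8 CPM in the siCHD3 libraries, against 176, 228 and 171 CPM in siCtrl replicates 4 to 6. It fell without overlap, with a log2 change of -0.63 ± 0.16 (edgeR adjusted p = 0.0156), and the call did not survive removal of siCtrl replicate 5 or siCHD3 replicate 2 (adjusted p up to 0.0946). SLC7A11 had 64.2, 85.6 and 82.8 CPM in the siCHD4 libraries, against 49.1, 44.3 and 26.2 CPM in siCtrl replicates 1 to 3. All siCHD4 libraries were higher, but the log2 change of 0.96 ± 0.28 did not pass (edgeR adjusted p = 0.0914, 0.00191 without siCtrl replicate 3).

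The other light and heavy chains did not pass after siCHD4. SLC7A5 had 1357, 1858 and 1647 CPM in the siCHD4 libraries, against 1319, 1723 and 3346 CPM in siCtrl replicates 1 to 3, and SLC3A2 had 577, 591 and 553 CPM in the siCHD4 libraries, against 516, 508 and 1177 CPM in siCtrl replicates 1 to 3. In both, siCtrl replicate 3 was highest and the other siCtrl libraries were near siCHD4 (log2 changes -0.39 ± 0.34 and -0.35 ± 0.34, edgeR adjusted p = 0.561 and 0.6). Without it they were 0.11 and 0.18, not past the test. SLC7A1 (cationic amino acids), SLC1A4 and SLC1A5 (neutral amino acids, the second a glutamine carrier) gave log2 changes of -0.37, -0.21 and -0.61 after siCHD4 and of -0.04, 0.11 and -0.06 after siCHD3, none past the test. Without siCtrl replicate 3 the values after siCHD4 were -0.29 for SLC7A1, 0.08 for SLC1A4 and -0.0077 for SLC1A5.

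The aminoacyl-tRNA synthetases SARS, GARS, AARS and WARS, which charge tRNAs with serine, glycine, alanine and tryptophan, did not pass in either comparison. After siCHD4 their log2 changes were -0.24, -0.26, -0.35 and 0.15, and without siCtrl replicate 3 they were 0.08 for SARS, -0.27 for GARS, 0.08 for AARS and 0.29 for WARS. After siCHD3 they were 0.19, 0.15, -0.02 and -0.13, with GARS higher without overlap (344 to 380 CPM, against 300.4 to 341 CPM in siCtrl).

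siCtrl replicate 3 was singled out for its distance from its group and because it was highest for so many members. Leaving out a siCtrl library that is highest for a gene raises that gene's log2 change by construction. The adjusted p-values without it therefore describe dependence on this library only. With that limit, the siCHD4 comparison was read again without it. Then 10 members passed: ATF5, DDIT3, CHAC1, NUPR1, PHGDH, PCK2 and SLC7A11 were higher and ATF3, ASNS and ALDH18A1 lower, and the median of the members was 0.08 in place of -0.17. Over all genes, 5226 of 17571 passed in place of 1213 of 17018. The log2 change had the opposite sign without this library for PHGDH, SHMT2, MTHFD2, PYCR1, SLC7A5, SLC3A2, SLC1A4, SARS and AARS, of which PHGDH alone passed. DDIT3 and ASNS passed both ways. With sample quality weights (limma voom), which keep the library at a lower weight, 15 of 36 members passed, 11 higher and 4 lower, against 5882 of 17018 genes, 3012 higher and 2870 lower.

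**Figure D4:**
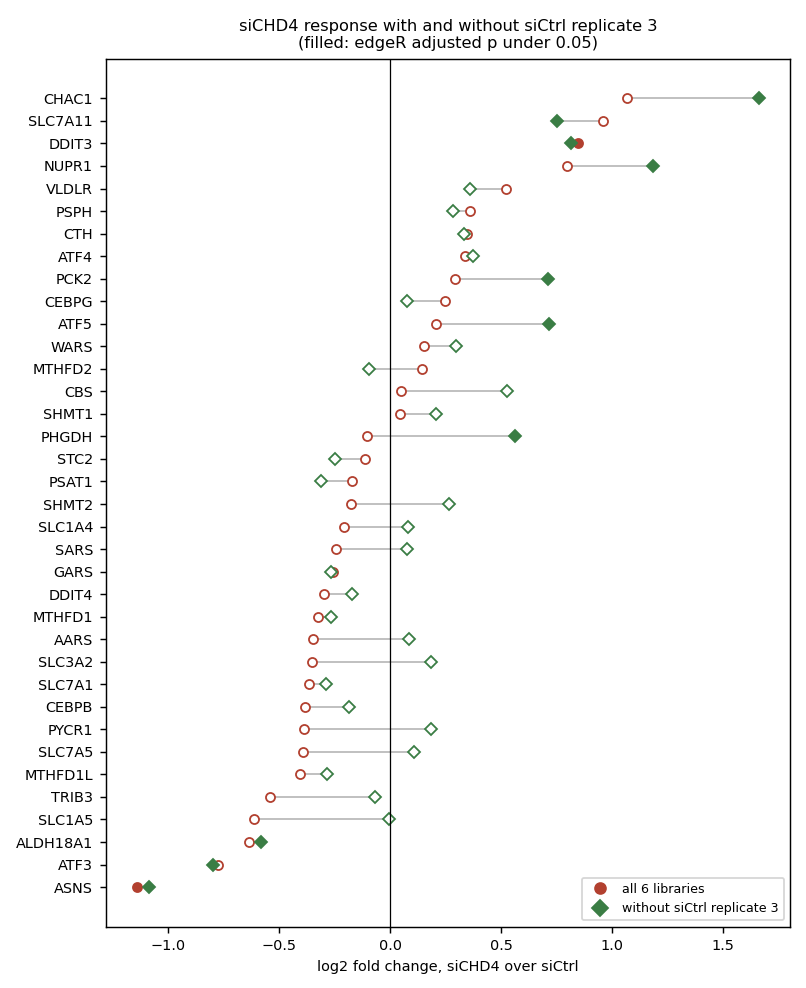
Log2 fold change of 36 genes after siCHD4 with all 6 libraries (red circles) and without siCtrl replicate 3 (green diamonds), ordered by the first value; filled symbols passed the edgeR test at an adjusted p under 0.05. With all libraries 2 symbols are filled and without siCtrl replicate 3 10 are, and PHGDH moves from -0.11 to 0.56.

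The difference of the responses, siCHD4 over its siCtrl less siCHD3 over its siCtrl, was tested over all 12 libraries. It passed for 5 of 37 members, DDIT3, SLC7A11 and CTH above 0 and DDIT4 and SLC7A5 below 0. Over 17357 genes, 6.84% were above and 7.16% below, so 5 of 37 is near the background. The difference for DDIT3 was 1.32 ± 0.21 (edgeR adjusted p = 0.00155), for SLC7A11 1.59 ± 0.35 (0.00949), and for DDIT4 -1.48 ± 0.21 (0.00085), and these 3 passed whichever 1 of the 12 libraries was left out. SLC7A5, at -1.77 ± 0.46 (0.0224), was lost without siCHD4 replicate 1, siCHD4 replicate 3 or siCHD3 replicate 2, and CTH, at 0.78 ± 0.23 (0.0391), was lost in 9 of 12 such fits. Without siCtrl replicate 3, ATF4, ATF5, CHAC1 and MTHFD2 also passed, above 0, while over all genes 4615 of 18360 passed in place of 2431. Without siCtrl replicate 1, MTHFD2 above 0 and SHMT1 and SLC3A2 below 0 also passed.

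For DDIT3, SLC7A11, SLC7A5 and DDIT4 the means of the siCtrl sets lay further apart than those of the silenced groups. The tables were normalised separately, and their levels are set side by side only as values. DDIT3 averaged 23.4 CPM after siCHD4 and 26.6 CPM after siCHD3, against 13.0 CPM in siCtrl 1 to 3 and 36.7 CPM in siCtrl 4 to 6. SLC7A11 averaged 77.5 and 124 CPM after siCHD4 and siCHD3, against 39.8 and 192 CPM in their siCtrl sets. SLC7A5 averaged 1621 and 1539 CPM after siCHD4 and siCHD3, against 2129 and 583 CPM in their siCtrl sets. DDIT4 averaged 48.1 and 70.3 CPM after siCHD4 and siCHD3, against 59.2 and 30.7 CPM in their siCtrl sets. CTH averaged 21.0 and 15.6 CPM after siCHD4 and siCHD3, against 16.5 and 21.0 CPM in their siCtrl sets. Across the 35 members tested in both comparisons, the responses had a Pearson r of -0.11 and a Spearman rho of -0.09, and 16 had the same sign. The same values over 15293 genes were -0.08 and -0.03, with 49.0% of the same sign. The points share the libraries of each table, so these are descriptions.

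Neighbouring pathways were read from lists of other genes. The unfolded protein and integrated stress response list, with the eIF2 kinases and chaperones, had 0 of 24 genes past the test after siCHD4. After siCHD3 it had 4 of 24 higher and 2 lower, against 11.5% and 8.81% of all genes, shares that apply to each list below after siCHD3. EIF2AK4 (GCN2), the kinase that senses uncharged tRNA, had 103 ± 10.4 CPM after siCHD3 and 51.2 ± 3.9 CPM in siCtrl and rose (log2 change 1.00 ± 0.14, adjusted p = 0.000414, edgeR). EIF2AK1, the heme-sensing kinase, and EDEM1, a factor of degradation from the endoplasmic reticulum, also rose (log2 changes 0.55 ± 0.13, adjusted p = 0.00936 and 0.56 ± 0.14, adjusted p = 0.0129). DNAJB9, an endoplasmic reticulum co-chaperone, fell (log2 change -0.94 ± 0.14, adjusted p = 0.000551). The list's median was 0.02 after siCHD4 and -0.02 after siCHD3. The 16 other aminoacyl-tRNA synthetases had 0 past the test in either comparison, with medians of -0.15 after siCHD4 and -0.09 after siCHD3.

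Among other folate and one-carbon genes, 1 of 23 tested passed after siCHD4, GLDC, the glycine decarboxylase, at 1.21 ± 0.229 CPM after siCHD4 and 0.427 ± 0.0945 CPM in siCtrl (log2 change 1.52 ± 0.29, adjusted p = 0.0208). After siCHD3 1 of 22 rose and 3 fell. SFXN1, the mitochondrial serine carrier, had 154 ± 8.48 CPM after siCHD3 and 67.9 ± 4.05 CPM in siCtrl and rose (log2 change 1.19 ± 0.13, adjusted p = 8.04e-05). SLC25A32, the mitochondrial folate carrier, had 58.6 ± 4.56 CPM after siCHD3 and 119.7 ± 11.4 CPM in siCtrl and fell (log2 change -1.03 ± 0.14, adjusted p = 0.000309). MTRR, which reactivates methionine synthase, and SLC46A1, the proton-coupled folate transporter, fell as well (log2 changes -0.64 ± 0.14, adjusted p = 0.00526 and -0.46 ± 0.14, adjusted p = 0.0392).

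Of the glutathione genes 0 of 11 passed after siCHD4, and 3 of 12 fell after siCHD3, where 10 of 12 were below 0 (8.81% of all genes fell and 51.5% were below 0). GCLM, the modifier subunit of glutamate-cysteine ligase, had 180.4 ± 20.5 CPM after siCHD3 and 312 ± 23.1 CPM in siCtrl (log2 change -0.79 ± 0.13, adjusted p = 0.00143). GSR, glutathione reductase, and CHAC2, a relative of CHAC1, fell with log2 changes of -0.55 ± 0.12, adjusted p = 0.00693 and -0.78 ± 0.18, adjusted p = 0.00897. The enzymes of proline, glutamine and aspartate metabolism outside the members had 0 of 13 past the test after siCHD4 and 2 of 13 after siCHD3, both higher. PRODH, proline dehydrogenase, and GFPT1, the entry to the hexosamine pathway, gave log2 changes of 1.66 ± 0.25, adjusted p = 0.000682 and 0.97 ± 0.13, adjusted p = 0.000338.

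Other amino acid transporters moved in both directions. After siCHD4, where 5.07% of all genes rose and 2.06% fell, 3 of 17 passed. The glutamate transporter SLC1A1 fell (log2 change -1.77 ± 0.34, adjusted p = 0.0204). SLC1A2, a glial glutamate transporter, and SLC7A7, a light chain that pairs with SLC3A2, rose (log2 changes 1.65 ± 0.27, adjusted p = 0.011 and 0.94 ± 0.20, adjusted p = 0.0309). The level of SLC1A2 was low, at 1.09 ± 0.117 CPM after siCHD4 and 0.341 ± 0.0599 CPM in siCtrl. After siCHD3 3 of 14 rose and 4 fell, against 11.5% and 8.81% of all genes. SLC7A8 (LAT2) had 288 ± 37.5 CPM after siCHD3 and 138 ± 31 CPM in siCtrl (log2 change 1.07 ± 0.17, adjusted p = 0.00118), and SLC7A7 rose with a log2 change of 1.30 ± 0.21, adjusted p = 0.00129. SLC1A1 rose after siCHD3 (log2 change 0.98 ± 0.18, adjusted p = 0.00265), where SLC43A1, a facilitative carrier of large neutral amino acids, fell (log2 change -0.96 ± 0.18, adjusted p = 0.00235).

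The list counts after siCHD4 depended on single libraries. Without siCtrl replicate 3, 6 of 24 listed genes of the unfolded protein and integrated stress response passed. So did 6 of 18 listed transporters, 4 of 12 glutathione genes and 3 of 16 synthetases. The same held for 3 of 25 folate genes and 3 of 16 proline, glutamine and aspartate enzymes. Over all genes 5226 of 17571 passed in that fit, so these counts are near or below the background. Without siCtrl replicate 2 or any 1 siCHD4 library, 0 folate genes and 0 transporters passed. Over all genes, from 261 of 17526 to 384 of 17492 passed in these fits, so these counts too are near the background. After siCHD3, 2 genes of the stress response list passed without siCHD3 replicate 1, 4 proline, glutamine and aspartate enzymes without siCHD3 replicate 2, and 1 synthetase without siCtrl replicate 4. Over all genes, 2110 of 16623, 2976 of 16554 and 2969 of 16468 passed in these fits, in the same order.

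**Figure D5:**
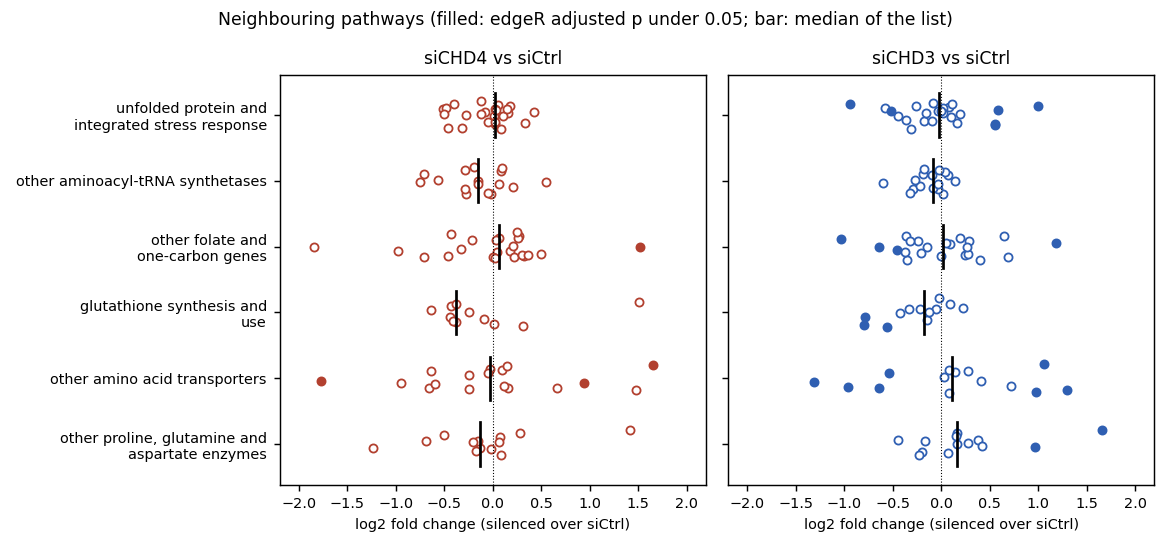
Log2 fold change of each tested gene in 6 lists of neighbouring pathways after siCHD4 (left) and after siCHD3 (right); each point is a gene, filled where it passed the edgeR test at an adjusted p under 0.05, and the black bar is the median of the list. After siCHD4 filled points are found only among the folate genes and the transporters, whereas after siCHD3 every list but the aminoacyl-tRNA synthetases has some.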

How the data were processed

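RNA-seq read counts from 12 libraries of 501Mel cells were analysed, 3 per group with a siCtrl set for each silencing. Per the labels, 6 ng of RNA was linearly amplified and libraries received 8 PCR cycles. Tools named in the submitters' notes are HTSeq, DESeq2, TopHat2 2.0.10, Bowtie2 (2.1.0 and 2.2.8), cutadapt 1.10 and CASAVA 1.8.2, with build hg19. For the strand of counting and the annotation release, no statement is given in the sources used here. Raw counts per gene, as deposited by the authors, were the basis of every test. The authors also deposited normalized signal (counts over a size factor) and that signal per kb, of which only the gene length was used. Deposited fold changes and p-values of the authors' own comparisons were not used. In the siCHD3 table, 5 rows without an Ensembl gene identifier were left out.

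The siCtrl libraries in the table of each silencing served as its control. After the filterByExpr filter and TMM scaling, edgeR 4.0.16 (R 4.3.3) gave quasi-likelihood tests with robust dispersion, and Benjamini-Hochberg adjustment ran over all genes. A gene passed at an adjusted p under 0.05, and the 2-fold count adds an absolute log2 fold change over 1. Biological variation between replicates, as edgeR's coefficient, came to 0.29 for siCHD4 and 0.178 for siCHD3. The scripts were tested on simulated counts. No 2 libraries of a group agreed within sampling noise (chi-square per degree of freedom 9.34 or more). Alternatives were other size factors, DESeq2 1.42.0, no filter, limma 3.58.1 voom with sample quality weights, a replicate block, and each library left out. Annotation was GENCODE v44lift37 on GRCh37, in which all 37 members were found. The members, their roles and the pathway lists were chosen with earlier results of these data known. Values in every library are given for members past a test and for 11 leading members (ATF4, DDIT3, TRIB3, CHAC1, ASNS, PHGDH, PSAT1, PSPH, SHMT2, MTHFD2 and SLC7A11), and up to 4 genes per list and comparison with the smallest adjusted p were named. STC2 was added for its low counts.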

Additional observations from a re-analysis of the deposited data

Results flagged for a closer look

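The responses to the 2 silencings differed for 5 members by the interaction test over 12 libraries, 5 of 37 tested, against 6.84% of all genes above and 7.16% below. The difference, siCHD4 response less siCHD3 response, was 1.32 on the log2 scale for DDIT3 (edgeR adjusted p = 0.00155), 1.59 for SLC7A11 (0.00949) and 0.78 for CTH (0.0391), and it was -1.48 for DDIT4 (0.00085) and -1.77 for SLC7A5 (0.0224). DDIT3 passed the test in both comparisons with opposite signs, SLC7A11, DDIT4 and SLC7A5 passed only after siCHD3, and CTH passed in neither comparison alone.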

How the results depend on the processing

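After siCHD4, 2 members passed with all libraries, 5 with DESeq2, 1 without the filter on low counts and 15 with voom quality weights. Genes called over 2-fold numbered 1097 in the same comparison and 2126 with voom quality weights. Leaving out 1 library gave 0 to 10 members past the test and 261 to 2030 genes called after siCHD4, both highest without siCtrl replicate 3. For the difference of the responses it gave 3 members (without siCHD4 replicate 1, siCHD4 replicate 3 or siCHD3 replicate 2) to 9 (without siCtrl replicate 3; 8 without siCtrl replicate 1), against 5 with all libraries and 19 with voom quality weights. The log2 value of PHGDH after siCHD4, -0.11 with all libraries, was 0.43 with voom quality weights and -0.36 to 0.56 with 1 library left out, the highest without siCtrl replicate 3. After siCHD3 the member count stayed within 1.5 times of 10 under every alternative run. With the replicate block in the siCHD4 table, 0 members passed and 602 genes were called. Deviations of same-numbered libraries from their group means had correlations of 0.01, 0.08 and -0.13. In the siCHD3 table, where no numbers are shared, such correlations ran from -0.55 to 0.54. With 3 libraries per group they cannot decide whether same-numbered libraries were paired. In the siCHD3 table no paired analysis was possible because siCtrl replicates 4 to 6 share no numbers with siCHD3. Of the member log2 values under the alternatives, 1251 counted as unchanged, 37 were no longer past the threshold, 48 became past it, 45 moved and 2 reversed. Unchanged values were past it both times with the same sign, or lay within the SE of the main value. Those within the SE could change sign. STC2 and ALDH1L2 are limited by depth. The causes were not tested.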
